A study of Mus musculus with 8 samples.

Results

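Bile acid transporters are the membrane carriers that bring bile acids into the hepatocyte from portal blood and send them out again, either into the bile canaliculus or back into blood. The 10 genes described here were taken by symbol from a liver table of 24547 genes, and each symbol matched 1 row. They are the uptake carriers Slc10a1, Slco1a1, Slco1a4 and Slco1b2, the apical sodium-dependent carrier Slc10a2, the canalicular exporters Abcb11, Abcc2 and Abcb4, and the basolateral exporters Abcc3 and Abcc4. RNA was sequenced from liver tissue of ICR mice, an outbred stock. In the treated group (4 libraries), a herbal preparation, Psoraleae Fructus decoction (from fruits of Psoralea corylifolia), was given into the stomach at high dose for 30 days. In the control group (4 libraries), saline was given by the same route for the same time. The sources used here do not state the dose by weight, the age or sex of the mice, or which animal each library came from, so each p-value reflects only the spread among these libraries. Library totals were 16398729 to 20159132 counts in treated libraries and 15864399 to 19153845 counts in controls.

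In the enterohepatic circulation, conjugated bile acids are reabsorbed in the ileum, return in portal blood, and are cleared by the sodium-dependent carrier encoded by Slc10a1 and by sodium-independent organic anion carriers of the Slco family. ATP-driven pumps then secrete them into bile, the step that generates bile flow, and a further pair of pumps on the blood side lets them escape when they accumulate. The farnesoid X receptor (Nr1h4) senses bile acids in the hepatocyte and regulates several of these carriers.

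Of the 10 transporters, Slc10a2 fell to 0.25 of its control level, and it was the 1 gene called. All 10 passed the filter on low counts and were tested. The test was edgeR's quasi-likelihood test on the counts, in a fit over 12861 genes with Benjamini-Hochberg adjustment, and a gene was called at an adjusted p under 0.05. The background over all tested genes was 9.21% called, made up of 5.46% with higher and 3.75% with lower treated values, so 1 of 10 members is close to that background. The basolateral exporters Abcc3 and Abcc4 had the next largest fitted differences relative to their errors, both higher in treated libraries, but neither was called. Abcc3 had an unadjusted p of 0.00594 (adjusted p = 0.0564) and Abcc4 one of 0.0199 (adjusted p = 0.106) in the edgeR fit over all genes. The main hepatocyte carriers on the uptake and canalicular sides, Slc10a1, Slco1b2, Abcb11 and Abcc2, had fitted differences between -0.04 and 0.27 on the log2 scale. The median log2 difference, treated minus control, was 0.059 over the 10 members and -0.037 over all tested genes.

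**Figure D1:**
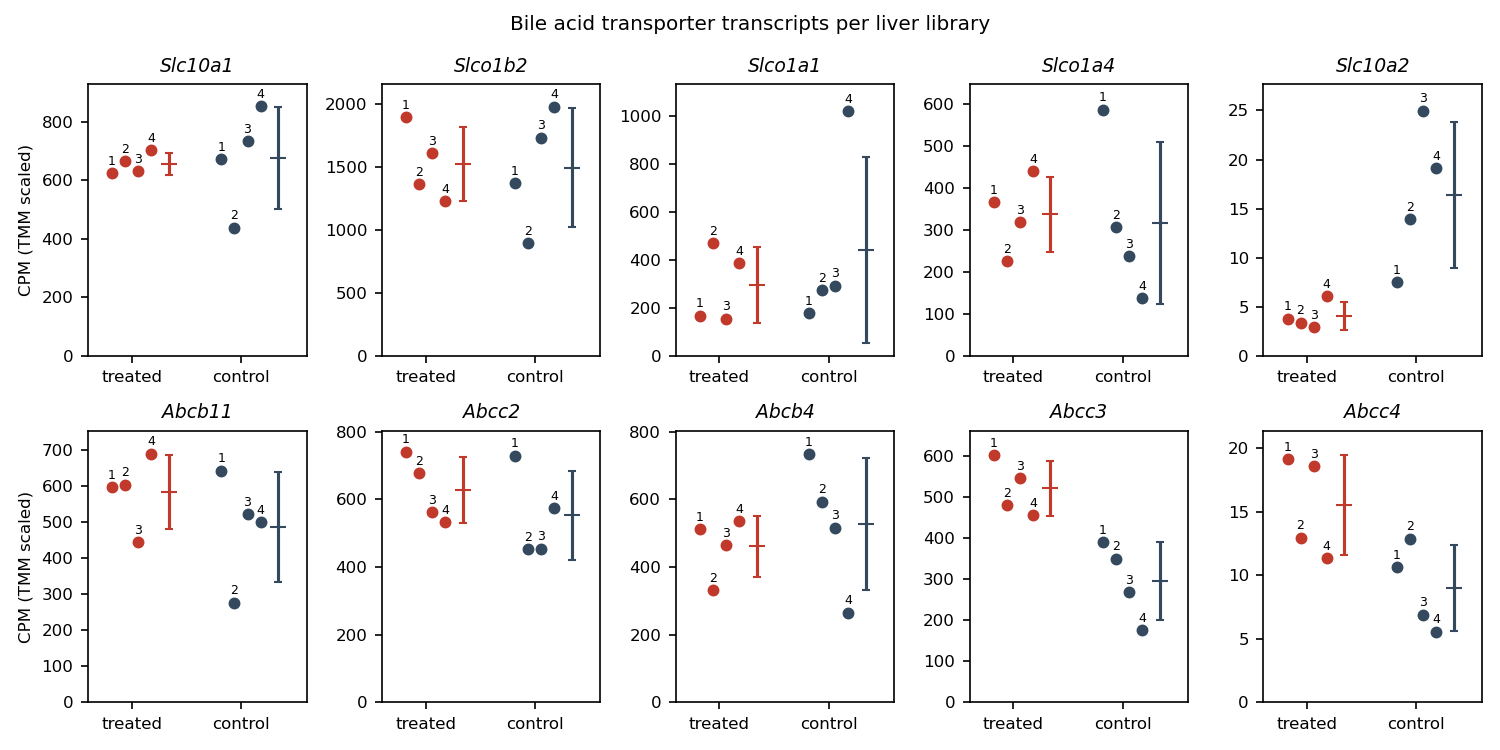
CPM (depth-scaled counts, with TMM factors) of each transporter on the y axis for the treated and control libraries, with the replicate number at each point and the group mean ± SD (n = 4) beside it. Slc10a2 lies lower and Abcc3 higher in every treated library than in any control, and Slco1a1 stands at 1018 CPM in control 4.

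Levels were compared between genes as FPKM, the deposited values scaled by gene length and by library total. In treated libraries Slco1b2 averaged 304.9 ± 57.8 FPKM and Slc10a1 293.7 ± 22.6 FPKM, and in controls the same carriers averaged 305.3 ± 88.6 and 308.4 ± 69.8 FPKM (SD, n = 4 each). These uptake carriers were the most abundant members in both groups and overlapped each other, each being higher in 2 of 4 libraries. In treated libraries Abcb11, Abcc3, Abcc2, Slco1a1, Slco1a4 and Abcb4 followed in this order, from 111.7 ± 21.7 FPKM for Abcb11 to 48.2 ± 8.59 FPKM for Abcb4. The ranges of neighbours in this middle group overlapped, so most of their order is not resolved at this spread, although Abcc3 lay above Abcc2 in 4 of 4 treated libraries. In controls the middle group held the same 6 genes between 94.2 ± 25.2 FPKM (Abcb11) and 49.8 ± 28.3 FPKM (Slco1a4), again with overlapping neighbours. Abcc4 and Slc10a2 were far below the others in both groups. In treated libraries Abcc4 lay above Slc10a2 (2.38 ± 0.57 against 0.96 ± 0.33 FPKM), and in controls it lay below (1.44 ± 0.61 against 4.01 ± 1.80 FPKM), in each case in 4 of 4 libraries.

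**Figure D2:**
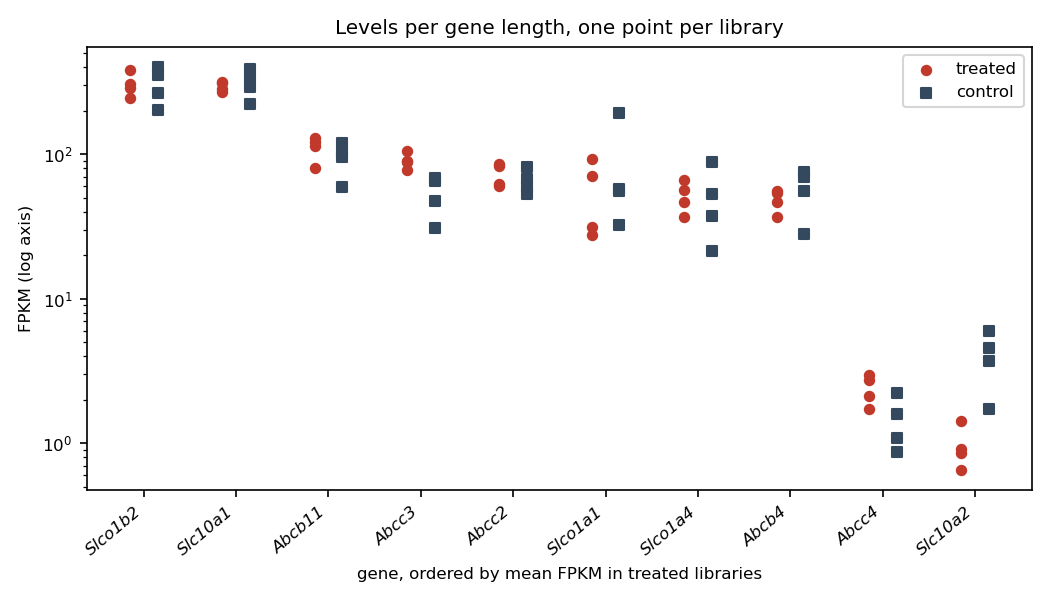
FPKM of each transporter on a log axis, 1 point per library, with treated and control libraries side by side and genes ordered by their treated mean. Slco1b2 and Slc10a1 are the highest and Abcc4 and Slc10a2 the lowest in both groups.

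Slc10a2 encodes the apical sodium-dependent bile acid transporter, known for bile acid reabsorption in ileal enterocytes and for uptake from bile in cholangiocytes. The gene lies on chromosome 8, from 5083219 to 5105351 (GRCm38, minus strand). It stood at 3.80, 3.40, 2.91 and 6.09 CPM in treated libraries 1 to 4, against 7.51, 13.9, 25.0 and 19.1 CPM in controls 1 to 4. The groups did not overlap, although treated 4 and control 1 lay close together, and over all tested genes 18.9% had groups that did not overlap, 8.7% with lower treated values. The underlying reads were few, 48 to 102 counts in treated libraries and 125 to 397 in controls. The log2 fold change was -2.01 (SE 0.37, 95% interval -2.85 to -1.17, adjusted p = 0.0164 by edgeR's quasi-likelihood test), so that controls were 4.04 times as high, with an interval of 2.25 to 7.23. The direction of Slc10a2 held in all 8 fits that left out 1 library, with log2 fold changes from -2.27 to -1.74. Its call was lost without treated 1, treated 2 or treated 3 (adjusted p = 0.0538, 0.0559 and 0.0662) and without controls 2 and 4 together (adjusted p = 0.0513). In bulk tissue, fewer cells that express Slc10a2 and less Slc10a2 RNA per cell cannot be told apart.

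Markers of the epithelia that are known to carry Slc10a2 ranged from 0 to well above the level of Slc10a2 itself. Over all tested genes edgeR's quasi-likelihood test called 9.21%, and 29.4% had an unadjusted p under 0.05. Of 13 cholangiocyte markers 12 were in the table and 7 were tested, and that test called 0 of them (0 at an unadjusted p under 0.05). Their summed level was 45.2 to 72.3 FPKM in treated libraries and 63.8 to 77.4 FPKM in controls, ranges that overlap. Most of that sum came from Aqp1, a water channel that other liver cells express too, at 29.4 to 46.7 FPKM in treated libraries and 40.3 to 54.8 FPKM in controls. The more specific biliary genes Krt7 and Krt19, which encode keratins of bile ducts, reached at most 0.11 and 0.46 FPKM in treated libraries and 0.054 and 0.43 FPKM in controls. Cftr, a chloride channel of the biliary epithelium, reached 0.013 FPKM in treated libraries and was at 0 in all controls. Of 10 enterocyte markers 8 were in the table and 3 were tested, with a summed level of 63.4 to 158.3 FPKM in treated libraries and 65.8 to 171 FPKM in controls. Most of that sum came from Fabp2, the intestinal fatty acid binding protein, at 27.7 to 91.6 FPKM in treated libraries and 42.3 to 140.3 FPKM in controls, and from Apoa4, an apolipoprotein that hepatocytes also make. Apoa4 was the 1 called, at 35.3 to 66.4 FPKM in treated libraries and 16.5 to 30.2 FPKM in controls. Alpi, the intestinal alkaline phosphatase, was at 0 in all 8 libraries. Of the other enterocyte markers in the table, Vil1 reached 0.069 FPKM in treated libraries and 0.13 FPKM in controls, and Slc5a1 0.51 and 0.42 FPKM. Lct, Cdx2 and Cdh17 reached at most 0.027 FPKM in treated libraries and were at 0 in all controls. The contribution of these cells to the fall of Slc10a2 was not tested.

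The sequence upstream of Slc10a2, the called gene, is shown beside those of its relative Slc10a1, whose groups overlapped, and of Abcb11, the bile salt export pump and a known target of the farnesoid X receptor. RefSeq sequences on GRCm38.p6 were found for 9 of the 10 members, and bases inside the annotated gene were left out, which leaves 186 of 250 bases for Slc10a2. Capitals mark matches, on either strand, to a set of short motifs.
Slc10a2, chr8:5105352-5105537, minus strand: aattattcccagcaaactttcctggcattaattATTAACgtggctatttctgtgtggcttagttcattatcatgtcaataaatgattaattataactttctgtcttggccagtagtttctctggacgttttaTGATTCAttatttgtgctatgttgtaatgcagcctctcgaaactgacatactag
Slc10a1, chr12:80968706-80968955, minus strand: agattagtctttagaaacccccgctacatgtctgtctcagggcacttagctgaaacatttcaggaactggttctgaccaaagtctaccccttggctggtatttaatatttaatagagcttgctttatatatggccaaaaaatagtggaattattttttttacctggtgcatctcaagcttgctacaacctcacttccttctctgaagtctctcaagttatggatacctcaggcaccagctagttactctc
Abcb11, chr2:69342617-69342866, minus strand: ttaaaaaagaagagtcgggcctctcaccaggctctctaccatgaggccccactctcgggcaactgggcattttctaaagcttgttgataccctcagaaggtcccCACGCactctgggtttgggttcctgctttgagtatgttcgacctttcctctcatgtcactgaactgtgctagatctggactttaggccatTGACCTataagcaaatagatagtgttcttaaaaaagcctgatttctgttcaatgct
The motifs searched were the inverted repeat with a spacer of 1 base known for the farnesoid X receptor, the nuclear receptor hexamer within it (AGGTCA), the hepatocyte nuclear factor 1 hexamer (GTTAAT), AP-1 (TGANTCA), the antioxidant response element (TGACNNNGC) and the aryl hydrocarbon receptor core (GCGTG). In Slc10a2 the capitals are the nuclear factor hexamer at 217 to 212 bases before the start, and AP-1 at 118 to 112 bases before it. The hexamer GTTAAT occurs in 6.43% and AP-1 in 6.75% of 32851 promoter windows of 250 bases. Slc10a1 held none of the motifs in this window, while the window before a second annotated start of Slc10a1, not shown, held the nuclear receptor hexamer at 87 to 82 bases before it. Abcb11 held the nuclear receptor hexamer, on the minus strand, at 56 to 51 bases before its start, as did 14.02% of windows anywhere in their length, and the aryl hydrocarbon receptor core at 146 to 142 bases, as did 28.2% of windows. The full inverted repeat, searched by exact letters, was found in 2 of the 32851 windows (0.0061%) and in no window of a member. With so few windows matching, its absence from the members says little. In Abcb11 the letters aggccatTGACCT differ from that repeat at 1 base. A match describes letters and shows no binding.

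The principal uptake carriers of the hepatocyte had fitted differences near 0, which for Slco1b2 depended on the correction for gene length and GC content. Slc10a1, the sodium-dependent taurocholate carrier (chromosome 12, 80953183 to 80968705), stood at 624, 666, 630 and 703 CPM in treated libraries 1 to 4, against 673, 439, 732 and 854 CPM in controls 1 to 4. The treated libraries lay close together and inside the control range, whose ends were control 2 and control 4. This gave a log2 fold change of -0.04 (SE 0.20, 95% interval -0.48 to 0.40, adjusted p = 0.915 in the edgeR fit). Slco1b2, the mouse liver-specific organic anion carrier of unconjugated bile acids and drugs (chromosome 6, 141629518 to 141686646), stood at 1898, 1368, 1612 and 1233 CPM in treated libraries and at 1374, 897, 1736 and 1982 CPM in controls. Its groups overlapped through their whole range, with a log2 fold change of 0.03 (SE 0.25, 95% interval -0.54 to 0.59, adjusted p = 0.952 in the edgeR fit). For both genes this interval lies within a 2-fold difference in either direction. Once trends with gene length and GC content were removed, Slco1b2 was at 0.47 (SE 0.24, adjusted p = 0.246) and Slc10a1 at -0.04.

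Slco1a1 and Slco1a4, neighbouring genes on chromosome 6 that encode organic anion carriers of the blood side of the hepatocyte, varied most among the abundant members. Slco1a1 (141907282 to 141946962) stood at 168, 469, 156 and 387 CPM in treated libraries 1 to 4, against 178, 274, 292 and 1018 CPM in controls 1 to 4. The control mean of 440 ± 388 CPM was set by control 4, and the treated mean was 295 ± 157 CPM (SD, n = 4 each). The log2 fold change of Slco1a1 was -0.58 (SE 0.62, adjusted p = 0.569 in the edgeR fit) with all libraries and 0.25 without control 4, so no direction can be given. Slco1a4 (141805440 to 141856199) ran the other way across these controls, with 366, 226, 319 and 440 CPM in treated libraries and 587, 307, 238 and 138 CPM in controls. Its lowest library was control 4, where Slco1a1 was highest. The ratio of Slco1a1 to Slco1a4 FPKM was 8.96 in control 4, and between 0.37 and 2.52 in the other 7 libraries. For Slco1a4 the log2 fold change was 0.09 (SE 0.40, 95% interval -0.83 to 1.01), which includes differences of up to about 2-fold, and it was -0.16 without control 4 and 0.42 with the length and GC correction. In mice, Slco1a1 is known as a male-predominant and Slco1a4 as a female-predominant liver transcript. In all 8 libraries 4 Y-linked genes (Ddx3y, Kdm5d, Uty and Eif2s3y) had 0 counts while Xist had 3694 to 13925. This is the pattern of female tissue, and control 4 shared it with the others. The cause of the high Slco1a1 value in control 4 was not tested.

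These neighbours share sequence with each other and with further members of their family. Over 1845 aligned bases the longest Slco1a1 and Slco1a4 transcripts were 86.3% identical in the GENCODE annotation. The closest transcript to both genes was that of Slco1a5 (87.6% identity to Slco1a1 and 88.9% to Slco1a4). Slco1a5 was absent from the deposited counts, so its reads could not be analysed here. Slco1a6, Gm6614 and Gm5724, which align to both genes at 81.4% to 86.3%, held 1, 30 and 0 counts over all 8 libraries. Reads of such copies could have been assigned to either gene in the authors' counting, so the split between Slco1a1 and Slco1a4 carries that uncertainty. Together the 4 hepatocyte uptake carriers summed to 706 ± 45.9 FPKM in treated libraries and 748 ± 196 FPKM in controls (SD, n = 4 each). Slc10a1 made up 37.5% to 44.9% of this sum in treated libraries and 38.6% to 43.1% in controls, a nearly constant share, while the share of Slco1a1 was 4.20% to 12.6% in treated libraries and 4.75% to 19.2% in controls.

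The canalicular exporters overlapped between the groups, and none was called. Abcb11, the bile salt export pump that drives bile-acid-dependent bile flow (chromosome 2, 69238282 to 69342616), stood at 595, 603, 443 and 688 CPM in treated libraries 1 to 4, against 641, 276, 521 and 498 CPM in controls 1 to 4. Control 2 was the lowest library and treated 4 the highest, and 3 of 4 treated libraries lay above the control mean. On the log2 scale Abcb11 differed by 0.27 (SE 0.25, 95% interval -0.29 to 0.82, adjusted p = 0.505 in the edgeR fit), and 0.08 without control 2. Annotated genes on the opposite strand, Gm13613 and the pseudogene Gm13614, overlap Abcb11 exons, and their reads cannot be separated from it without strand.

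Abcc2, the multidrug resistance protein that exports conjugated bilirubin and sulfated or glucuronidated bile acids into bile (chromosome 19, 43782192 to 43840740), stood at 741, 677, 563 and 533 CPM in treated libraries, against 730, 453, 454 and 574 CPM in controls. The groups overlapped, with a log2 fold change of 0.18 (SE 0.20, 95% interval -0.25 to 0.62, adjusted p = 0.561 in the edgeR fit), and 0.40 with the length and GC correction. Abcb4, the flippase that supplies phosphatidylcholine to bile and protects ducts from detergent bile acids (chromosome 5, 8893717 to 8959231), stood at 511, 332, 465 and 536 CPM in treated libraries, against 733, 593, 516 and 265 CPM in controls. Control 4 was its lowest library and 3 of 4 treated libraries lay below the control mean. The log2 fold change of Abcb4 was -0.19 (SE 0.29, 95% interval -0.83 to 0.44, adjusted p = 0.688 in the edgeR fit) and turned to 0.06 once trends with gene length and GC content were removed. Abcb1a and Abcb1b, the transcripts nearest to it in sequence (77.0% and 78.9% identity over the longest match), held 792 and 52 counts over all libraries.

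The share of Abcb4 in the summed canalicular FPKM was 21.2%, 15.3%, 24.6% and 22.6% in treated libraries and 27.1%, 37.2%, 26.3% and 14.7% in controls. Abcb11 took 42.7% to 52.8% of that sum in treated libraries and 31.6% to 50.3% in controls. Control 2 had the lowest share of Abcb11 and the highest of Abcb4, and control 4 the lowest of Abcb4.

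Of the basolateral exporters, Abcc3 was higher in every treated library than in any control, but it missed the threshold for a call. This pump returns glucuronidated compounds and bile acids to blood and is known to be induced in cholestasis in rats and by ligands of the constitutive androstane receptor in mice. Abcc3 (chromosome 11, 94343295 to 94392997) stood at 603, 482, 547 and 456 CPM in treated libraries 1 to 4, against 391, 351, 269 and 177 CPM in controls 1 to 4. The treated mean was 522 ± 66.4 CPM and the control mean 297 ± 94.7 CPM (SD, n = 4 each). The groups did not overlap, as was the case with higher treated values for 10.2% of all tested genes. The log2 fold change of Abcc3 was 0.82 (SE 0.23, 95% interval 0.29 to 1.34), a 1.76-fold difference (adjusted p = 0.0564 in the edgeR fit). In 23 other fits the log2 value ran from 0.64 to 0.98, and Abcc3 was called in 7 of them. These included the DESeq2 Wald test (adjusted p = 0.0079), which called 15.4% of all genes, limma-voom (adjusted p = 0.0185), which called 16.2%, and the edgeR fits without control 1 or without control 4 (adjusted p = 0.0378 in each).

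Abcc4, a pump that exports bile acids together with glutathione, stood at 19.2, 12.96, 18.6 and 11.4 CPM in treated libraries, against 10.6, 12.9, 6.92 and 5.56 CPM in controls (chromosome 14, 118482692 to 118706219). It rested on 190 to 383 counts in treated libraries and 106 to 249 in controls. The 4 treated libraries lay above the control mean and 3 of them above every control, with control 2 inside the treated range. The log2 fold change was 0.78 (SE 0.28, 95% interval 0.15 to 1.42, adjusted p = 0.106 in the edgeR fit), and Abcc4 was called in none of the 23 other fits, where its adjusted p was at least 0.0529. Per gene length, Abcc3 made up 97.1% to 97.8% of the summed FPKM of the pair in treated libraries and 96.8% to 97.8% in controls.

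**Figure D3:**
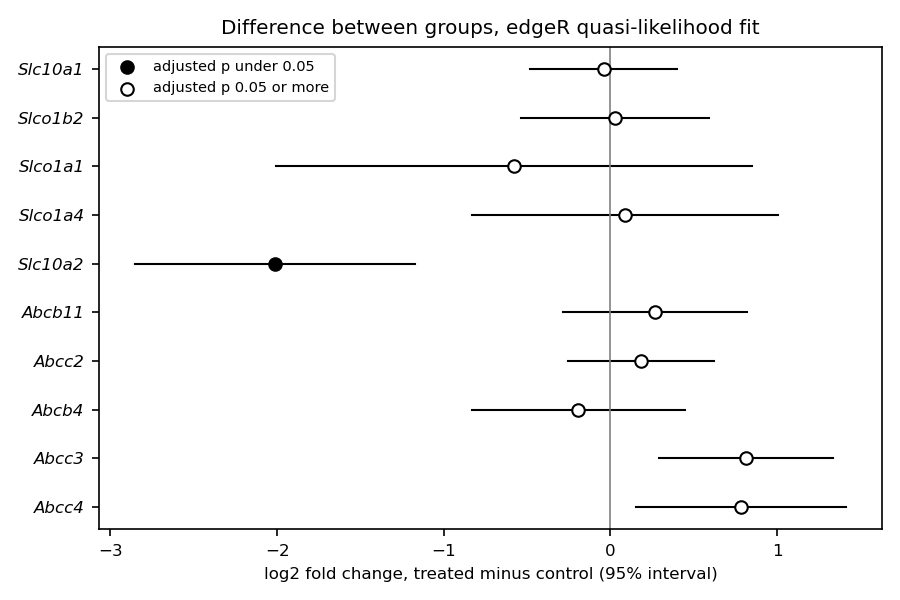
Log2 fold change, treated minus control, of each transporter on the x axis with its 95% interval from the edgeR fit. Slc10a2 (filled) is the called gene, and the intervals of Abcc3 and Abcc4 lie above 0 although their adjusted p-values are 0.0564 and 0.106.

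The control libraries differed from each other more than the treated ones did. The coefficient of variation of CPM was larger among controls for 10 of 10 members, as it was for 67.8% of all tested genes. For Slc10a1 it was 5.55% in treated libraries and 25.9% in controls, and for Abcc3 12.7% and 31.9%. Control 4 was the highest library for Slc10a1, Slco1b2 and Slco1a1 and the lowest for Slco1a4, Abcb4, Abcc3 and Abcc4. It was thus an extreme for 7 of 10 members, against 30.3% of all tested genes. Control 2 was the lowest for Slc10a1, Slco1b2, Abcb11 and Abcc2, and it was an extreme for 34.8% of all tested genes. Summed FPKM of 7 MHC class II genes was 43.5 to 64.6 in treated libraries and 166.8 to 1490 in controls, and the part of such differences in the transporter values was not tested.

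**Figure D4:**
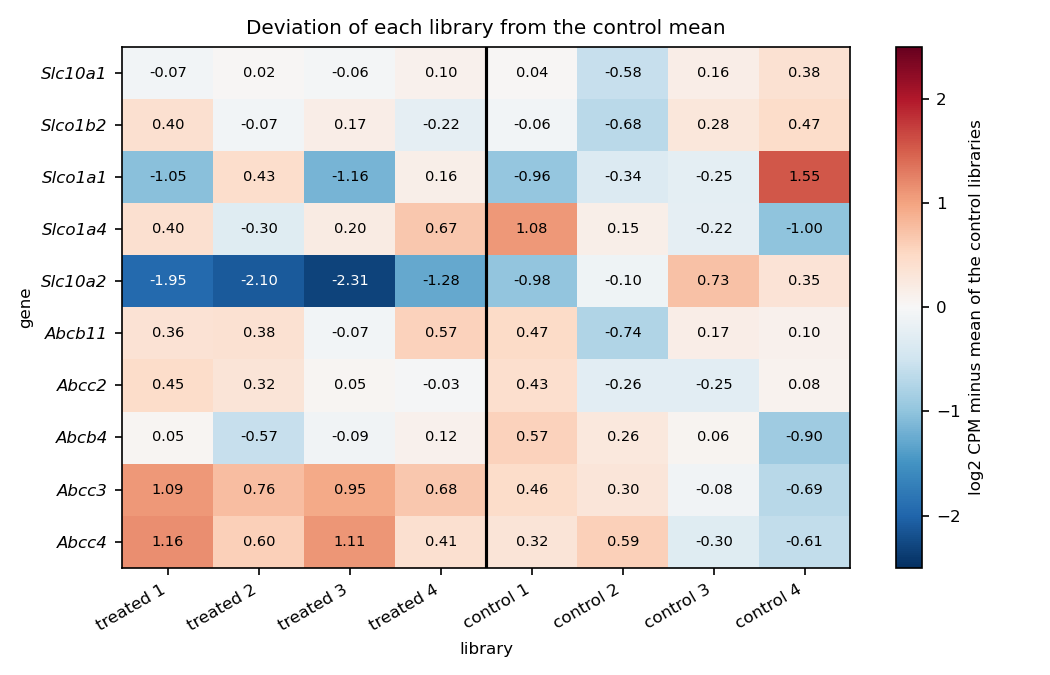
Log2 CPM of each transporter (rows) in each library (columns) minus the mean of the control libraries, with treated libraries left of the line. Slc10a2 is negative and Abcc3 and Abcc4 are positive in all treated libraries, and control 4 ranges from 1.55 for Slco1a1 to -1.005 for Slco1a4.

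The labelled tissue showed the markers of hepatocytes at high levels in all libraries. The 12 markers summed to 82140 to 86670 FPKM in treated libraries and 68960 to 85330 FPKM in controls, and edgeR called 0 of them (2 at an unadjusted p under 0.05, where the share over all tested genes was 29.4%). Of genes that mark the zones of the liver lobule, 1 of 9 tested pericentral genes was called higher (Rnf43) and 1 of 10 periportal genes was called lower (Ctsc), shares near the 9.21% called over all tested genes.

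Among other carriers of bile acids, sterols and organic anions, 13 of 18 listed genes were tested. None was called by edgeR, DESeq2 or limma-voom, which called 9.21%, 15.4% and 16.2% of all tested genes. In the edgeR fit 2 had an unadjusted p under 0.05, as did 29.4% of all tested genes. Those 2 were Slco3a1, an organic anion carrier at 2.26 ± 0.23 CPM in treated libraries and 4.24 ± 2.02 CPM in controls, and Abcc1, a pump for glutathione conjugates at 1.71 ± 0.71 and 3.68 ± 2.17 CPM (SD, n = 4 each). Slc51a and Slc51b, which together form the basolateral organic solute transporter and are high in ileum, did not pass the filter and stood at no more than 0.099 and 0.25 FPKM in any library. The median log2 difference of the 13 genes was -0.21. Without control 4, when 17.8% of all genes were called, 2 of them were called, Slco3a1 (log2 -1.12) and Abcb1a, a drug efflux pump (log2 1.41), and without controls 2 and 4 together, when 8.07% were called, 1 was called, Abcb1a (log2 1.29). Slc51a, Slc51b and Abcb1a were chosen after their values were seen.

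Of 18 tested regulators of bile acid transport, 2 were called, both higher in treated libraries. Over all tested genes 9.21% were called, 5.46% with higher treated values, so this count is near the background. The median log2 difference of the 18 regulators was 0.24. Nr1i3, the constitutive androstane receptor, rose to 35.1 ± 6.20 CPM in treated libraries, against 19.4 ± 3.80 CPM in controls (log2 0.85, SE 0.18, adjusted p = 0.022 in the edgeR fit). This call was lost without treated 2, treated 3, treated 4 or control 3, with adjusted p-values from 0.0551 to 0.0681. Ahr, the aryl hydrocarbon receptor, rose to 64.4 ± 2.90 CPM in treated libraries, against 46.0 ± 7.67 CPM in controls (log2 0.49, SE 0.13, adjusted p = 0.0464 in the edgeR fit), and its call was kept only without control 1 or control 4 among the 8 fits that left out a library. It was also lost with library size alone (adjusted p = 0.079), with non-robust dispersion (0.0512), with limma on FPKM (0.073 to 0.155 in the 3 fits), without controls 2 and 4 (0.0919), and with the replicate block without (0.065) or with (0.0533) the length and GC correction. Nr1h4, chosen after its values were seen, averaged 138 ± 26.5 CPM in treated libraries and 97.6 ± 27.9 CPM in controls (adjusted p = 0.153 in the edgeR fit, and 0.0396 without control 4). Its target Nr0b2, a repressor of bile acid synthesis also chosen after its values were seen, averaged 36.8 ± 7.98 CPM in treated libraries and 24.6 ± 5.53 CPM in controls (adjusted p = 0.0899 in the edgeR fit).

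Of 15 tested genes of bile acid synthesis and conjugation the one called was Cyp7a1, the rate-limiting enzyme of synthesis from cholesterol, with a log2 fold change of 1.86 (SE 0.29). Cyp39a1, an oxysterol hydroxylase, had a log2 fold change of -2.50 (SE 0.70) and missed the threshold (adjusted p = 0.0661 in the edgeR fit), and it was called with non-robust dispersion, with DESeq2, with limma-voom and without control 4. Of 17 genes that anchor or traffic canalicular carriers the one called was Stk11, a kinase needed for canalicular polarity in mouse hepatocytes. It stood at 104 ± 6.68 CPM in treated libraries and 61.3 ± 2.83 CPM in controls (log2 0.76, SE 0.10, adjusted p = 0.00534 in the edgeR fit). In that fit 8 of the 17 genes had an unadjusted p under 0.05, against 29.4% of all tested genes, and their median log2 difference was -0.025. Msn, which links the membrane to actin, had an adjusted p of 0.0502 in the edgeR fit, with lower treated values (30.6 ± 5.20 CPM, against 61.3 ± 26.2 CPM in controls). It was called in several other fits, among them DESeq2, limma-voom and the replicate block. Ezr and Rdx of the same list were not called (log2 -0.71 and 0.06, adjusted p = 0.144 and 0.806 in the edgeR fit). Without control 4, the calls among these 17 genes numbered 5, beside 17.8% of all genes in that fit. Beside Stk11, Slc9a3r1, a scaffold of canalicular carriers, was called higher (log2 0.76) and Msn, Vipas39 and Stx3 lower. Without controls 2 and 4 together, when 8.07% of all genes were called, Slc9a3r1 (log2 0.77), Stk11 (log2 0.72) and Msn (log2 -0.79) were called. Cyp39a1, Msn, Ezr, Rdx, Slc9a3r1, Vipas39 and Stx3 were chosen after their values were seen. With all libraries the background was 9.21%.

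The pattern of each transporter over the 8 libraries was also set against every other tested gene, as a description. The gene most like Slc10a2 in log2 CPM was Foxn2 (Pearson r = 0.981 over 8 libraries), and the one most like Abcc3 was Gas5 (r = 0.983), a host transcript of small nucleolar RNAs. For the 10 members these highest correlations ran from 0.957 to 0.983. Each is the largest of 12860 correlations over 8 libraries that share the group difference, so a high value comes in part from the choice.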

How the data were processed

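Liver RNA was measured in 4 treated and 4 control libraries. Trizol extraction, selection on poly-T beads and a NEBNext Ultra library kit are stated in the labels' protocols. The authors deposited raw read counts per gene, and beside them FPKM values, which on checking equal the count divided by a gene length and the library total. HISAT2, HTSeq 0.13.5, DESeq2 1.32.0 and GRCm38 are named in the submitters' processing notes without roles, and the strand setting is not given in the sources used here. Counts were fitted in R 4.3.3 with edgeR 4.0.16: filterByExpr defaults (minimum count 10), TMM factors, robust quasi-likelihood F test of group, Benjamini-Hochberg adjustment over 12861 genes. CPM are scaled with TMM factors. Among the genes called, 702 were higher and 482 lower in treated libraries (59.3% of calls higher). A fit corrected for gene length and GC content by per-library smooth trends called 343 higher and 146 lower (70.1% of calls higher). No pair of libraries was a duplicate: the counts of the closest pair differed by a chi-square of 32.5 per degree of freedom. Alternatives used DESeq2 1.42.0 and limma 3.58.1 (voom, and log2(FPKM + 1) or log2(FPKM + 0.1)).

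The members were fixed by symbol, a rule that reads no measured value, but they and the lists were chosen with earlier results of these data known. The text names all members and, per pathway list, each called gene or, with none called, the 2 of smallest p. It also names the most similar gene in log2 CPM for Slc10a2 and Abcc3, and near copies of members. Other named genes of the pathway lists were picked with their values in view, as the text says beside them. The single genes named from the marker lists were also picked with their values in view. Xist and the Y-linked genes were chosen after the values of Slco1a1 and Slco1a4 were seen. Near copies were sought with blastn 2.17.0 on GENCODE transcripts (at least 75% identity over at least 200 bases). This rule stands in for one on protein identity in the design, since no protein table was used here. Marker lists were used for hepatocytes, cholangiocytes, enterocytes, zones and MHC class II. Lists for other cells came from the same edgeR fit, in which 3.75% of all genes were called lower and 29.4% had an unadjusted p under 0.05. Called lower were 3 of 13 tested macrophage genes, 3 of 8 for T and NK cells, 2 of 9 for endothelium and 1 of 9 for stellate cells. For B cells 0 of 4 and for neutrophils 0 of 2 were called. Under an unadjusted p of 0.05 lay 8 macrophage, 5 T and NK cell, 3 endothelial, 4 stellate, 1 B cell and 0 neutrophil genes. Median log2 differences were -0.80, -1.52, -0.30, -0.40, 0.14 and 0.54 in that order, against -0.037 over all tested genes. The part of these cells in the transporter values was not tested.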

Additional observations from a re-analysis of the deposited data

Results flagged for a closer look

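Slco1a1 stood at 1018 CPM in control 4, far from the other controls at 178, 274 and 292 CPM. Nr1i3 stood at 13.8 CPM in control 4, below the other controls at 21.0 to 21.6 CPM. For both genes the gap to the nearest control took up more of the group's range than Dixon's test allows for 4 values (0.864 and 0.921 of the range). Of 32 groups of 4 libraries checked, these 2 were flagged, both for control 4. Chance alone flags about 1 in 20 independent groups. Groups of different genes share the same libraries, so this rate cannot tell whether the 2 flags exceed chance.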

How the results depend on the processing

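The fall of Slc10a2 kept its direction in all 23 other fits (log2 -2.27 to -1.29) and its call in 18, and it was -1.49 after the length and GC correction. The number of transporters called was 1, and 2 (Slc10a2 and Abcc3) with no low-count filter, the DESeq2 Wald test, limma-voom, or a threshold of 0.1. It was 0 with limma on log2(FPKM + 1) without a filter, without controls 2 and 4, and at a threshold of 0.01, and 0 to 2 with single libraries left out. With a replicate block it was 2, also together with the length and GC correction. Same-numbered libraries correlated at -0.012 to 0.177 in their deviations from the group means. Treated 1 correlated best with control 1 (0.177) and treated 2 with control 2 (0.059). Treated 3 correlated best with control 4 (0.176) and treated 4 with control 3 (0.097), so the numbers were not taken as pairs.

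Over the whole table the 1184 calls became 2153 with the DESeq2 Wald test, 2088 with limma-voom, 322 with limma on log2(FPKM + 1) without a filter, 489 after the length and GC correction, 432 with the replicate block and that correction, 145 at a threshold of 0.01 and 2272 at 0.1. With single libraries left out they ran from 183 (without treated 3) to 2330 (without control 4). Calls in the 4 pathway lists, 4 in all, became 7, 8 and 2 in the first 3 of these settings, 2 at 0.01 and 8 at 0.1, and 2 to 12 with single libraries left out.

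Signs turned for Slco1b2, Abcb4, Slco1a1, Slco1a4 and Slc10a1, none of them called, and the cause was not tested. Slco1b2 was -0.0023 with library size alone, -0.019 without controls 2 and 4, and -0.14 to 0.20 with single libraries left out, and it moved to 0.47 with the length and GC correction and 0.50 with the block added. Abcb4 was 0.060 with the length and GC correction, 0.11 with the block added, and -0.41 to 0.010 with single libraries left out. Slco1a1 was 0.33 and Slco1a4 -0.28 without controls 2 and 4. With single libraries left out Slco1a1 ran from -0.88 to 0.25, Slco1a4 from -0.16 to 0.57 and Slc10a1 from -0.19 to 0.096. Slc10a2 and Abcc4 rest on 48 to 397 counts per library, and counting error adds to their spread.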
